A study of Danio rerio with 6 samples.

Results

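The genes of the BMP, activin and TGF-beta family of signals were followed in embryonic zebrafish eyes exposed to retinoic acid (RA). The members were taken by gene symbol, as genes whose name starts with bmp, gdf, inhb, smad, acvr, tgfb, nog, chrd, fst, ndr, lft, admp, bambi or grem, with 1 exception, and each was read from the brightest of its probe sets, a probe set being the group of short array oligonucleotides that measures 1 transcript. This gave 51 of the 8793 genes that the array's annotation names by a single symbol. Of these, 44 were grouped by symbol as ligands, receptors, intracellular carriers, or inhibitors and modulators of the pathway. The follistatin-like genes were placed with the inhibitors by their symbols. The other 7 were matched by their letters only, were not counted as parts of the pathway and are described apart. The symbols, not the measured signals, chose the genes.

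In the RA group, 3 pools of 64 eyes came from embryos kept in 0.3 µM all-trans RA between 48 and 75 hours post fertilization (hpf), the period in which zebrafish photoreceptors differentiate. In the DMSO group, 3 pools of 64 eyes came from embryos of the same clutches kept in 0.1% DMSO, the solvent, over the same hours. Each of 3 clutches was split between the treatments. The embryos of both groups were of 1 wild-type line, SciH, and each pool was hybridised to 1 Affymetrix Zebrafish Genome Array. The sample titles number the pools 1, 3 and 4 in each group. Pools with the same number were taken as 1 clutch, which the titles do not state. RNA was taken from whole dissected eyes, which can carry blood, cartilage, muscle and skin beside the retina and lens, so fewer cells of a type and less RNA per cell cannot be told apart in these values.

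Ligands of this family are secreted dimers that bind type II and type I receptor kinases at the cell surface. The receptors phosphorylate Smad proteins, which enter the nucleus and act on transcription. BMPs signal mainly through Smad1, Smad5 and Smad9, whereas activins, nodals and TGF-betas signal through Smad2 and Smad3. Noggins and chordin hold BMPs away from their receptors, follistatin does so for activin, and Smad6 and Smad7 block the pathway inside the cell. In the vertebrate eye BMPs take part in setting up the dorsal and ventral sides of the retina and in lens development, and RA, which is made in the same tissue, takes part in its patterning as well.

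Of the 51 members, 31 had signals above the array background on every array of at least 1 group, 4 only on some arrays, and 16 on none. The background was 13.2 signal units, the highest value of 87 control probe sets without a target in the fish. All 8 receptors and all 7 Smads exceeded it on at least 1 array, against 3 of 13 BMP and GDF ligands. The arrays had been scaled to a common mean, so signals of 1 gene can be set side by side between pools, but not those of different genes.

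**Figure D1:**
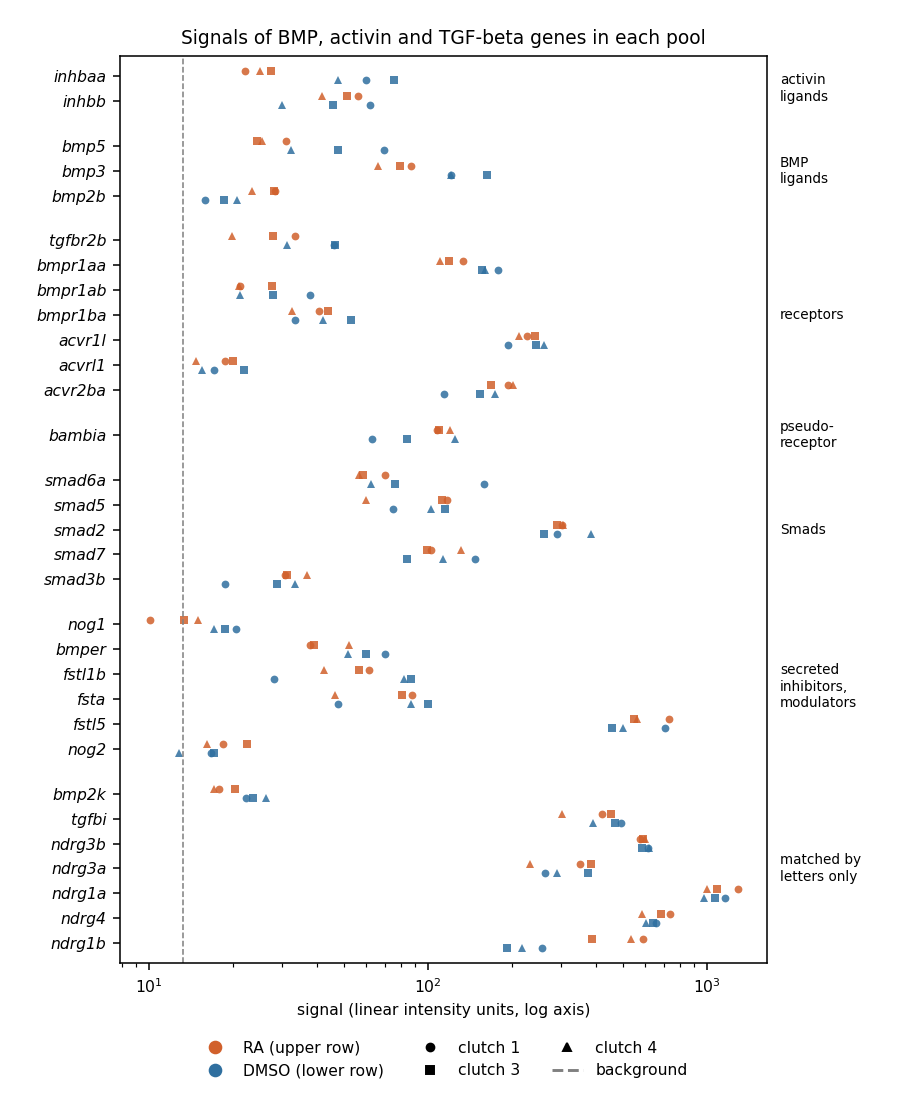
Signal of the 31 members above background on every array of at least 1 group, in linear intensity units on a log axis. Each row is a gene, with the 3 RA pools in the upper line and the 3 DMSO pools in the lower line, marker shape gives the clutch, and the dashed line is the background of 13.2. For inhbaa and bmp3 all RA points lie left of all DMSO points, and for bmp2b and ndrg1b they lie right of them.

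The first question was whether any member responded to RA. None of the 51 passed 10% FDR with limma, where 0.842% of the 15555 probe sets (131) passed. With the clutch as a block 45 probe sets passed. SAM, the test used by the study but written anew here, called 0 members as well when run on these signals. The study ran SAM on values of these arrays processed in another way (RMA). It listed bmp2b as higher and bmp4 and inhbaa as lower after RA. The study analysed at 10% and 20% FDR and does not say beside these genes which applied. In the signals used here bmp2b and inhbaa had the same directions, and bmp4 was at background. At 20% FDR limma gave 3 members (inhbaa, ndrg1b and bmp4, the last at background), against 1.87% of probe sets. At an unadjusted p under 0.05 it gave 9 of the 51 members, 2 with higher and 7 with lower signals after RA, against 8.76% of probe sets and 9.67% of the 8793 genes (4.39% higher and 5.28% lower). Among the 31 members above background it gave 7, 2 higher and 5 lower, against 9.51% of the 6678 genes above it (4.15% and 5.36%). The number of pools, 3 per group, limits what could be called: log2 fold changes had standard errors with a median of 0.22 over the 31 members above background and 0.21 over the 6678 genes above it.

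The RA and DMSO pools did not overlap for 11 members, 3 higher and 8 lower after RA, against 17.2% of all genes (7.2% higher and 10% lower). Among the 31 members above background the count was 8, made up of 2 higher and 6 lower, against 18.8% of the 6678 genes (7.68% and 11.1%). The signal moved the same way in all 3 clutches for 17 of these 31 members, against 38.6% of the 6678 genes. The median log2 fold change was −0.05 over the 31 members and −0.02 over the 6678 genes, and 11 of the 31 were above 0, against 45.7%. These counts describe the members beside all genes and were not tested.

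**Figure D2:**
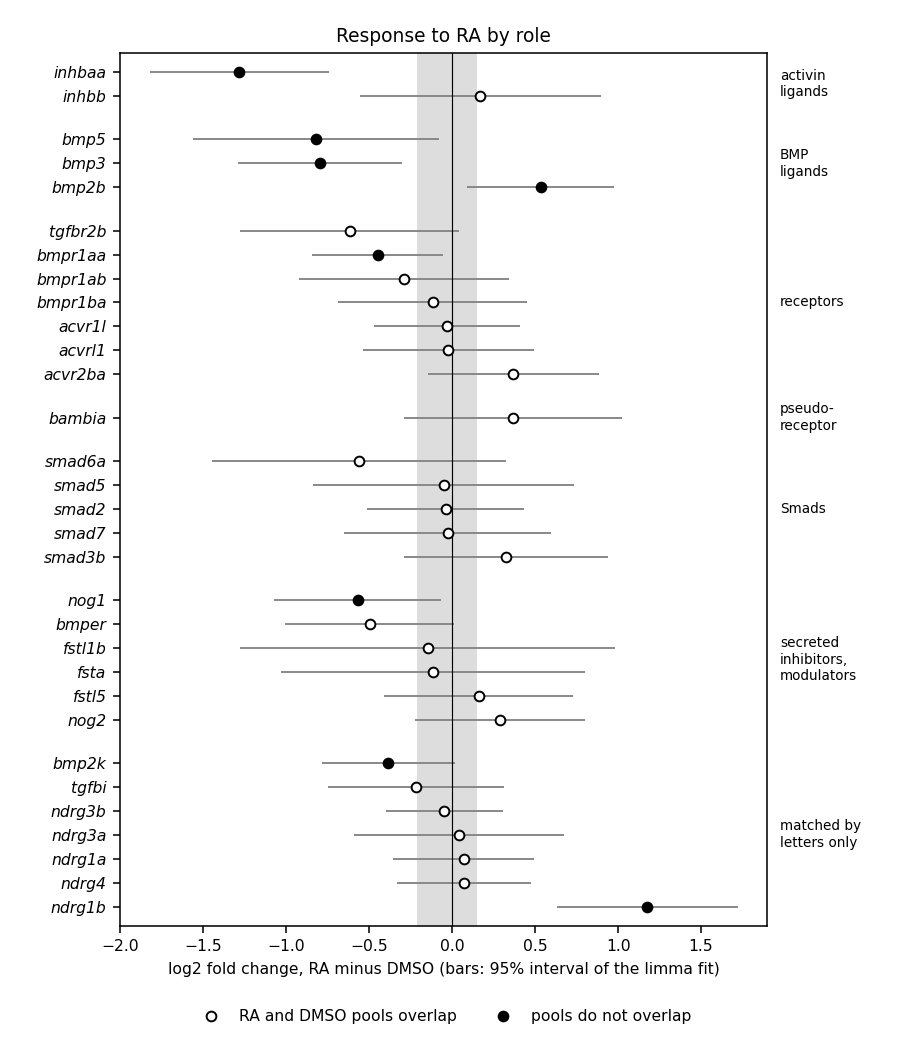
Log2 fold change of the same 31 members, RA minus DMSO, grouped by role. Points are fitted values and bars their 95% intervals from limma, filled points mark genes whose 3 RA and 3 DMSO pools did not overlap, and the grey band runs between the quartiles of the 6678 genes above background. The interval of inhbaa runs between −1.82 and −0.74 and that of ndrg1b between 0.63 and 1.72, the widest departures on either side of 0.

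The 2 measured activin subunit genes showed unlike values. inhbaa encodes the inhibin beta A subunit, which pairs with itself to form activin A. Its signals were 22.0, 27.3 and 24.99 in the RA pools of clutches 1, 3 and 4, against 60.2, 75.8 and 47.4 in the DMSO pools. Every RA pool lay below every DMSO pool, and the RA pools spread over a narrower range. The means were 24.8 ± 2.66 with RA and 61.1 ± 14.2 with DMSO (SD, n = 3 each), a 2.43-fold lower signal after RA (log2 fold change −1.28 ± 0.22 SE, limma adjusted p = 0.11, which missed 10% FDR). The clutch differences were −1.45, −1.47 and −0.92 on the log2 scale.

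inhbaa was the member nearest the threshold, and its call differed between settings. It passed with limma's intensity trend (adjusted p = 0.033), array weights (0.022), dim probe sets left out (0.021) and 16 units added to each signal (0.054). It missed with the clutch as a block (0.22). It also missed with SAM, quantile normalization, median centring and signals floored at the background, where no member passed 10% FDR. Leaving out any 1 pool kept it lower after RA and gave adjusted p-values between 0.13 and 0.33. A second inhbaa probe set was at background on all 6 arrays and gave no fold.

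inhbb encodes the beta B subunit of activin B. It had 56.1, 51.3 and 41.7 units in the RA pools, against 61.8, 45.7 and 29.9 in the DMSO pools. The groups overlapped, and the clutch differences went both ways (log2 fold change 0.17 ± 0.30 SE, 95% interval −0.56 to 0.89, limma adjusted p = 0.94).

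Among the BMP and GDF ligands, bmp3 and bmp5 had lower and bmp2b higher signals after RA, none past the threshold. bmp3, known in mammals as a BMP that opposes other BMPs, had 86.8, 79.3 and 66.2 units with RA, against 121, 163 and 121 with DMSO. All RA pools were the lower ones, with means of 77.4 ± 10.5 against 135 ± 24.0 (SD, n = 3 each). That is 1.74-fold lower after RA (log2 fold change −0.80 ± 0.20 SE, limma adjusted p = 0.28), and it passed only with array weights (adjusted p = 0.048).

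bmp5, a ligand of the group that also holds bmp6 and bmp7, had 31.0, 24.4 and 25.4 units with RA, against 69.3, 47.5 and 32.1 with DMSO. The RA pools were the lower ones here too, but the DMSO pool of clutch 4 came close to the highest RA pool. The log2 fold change was −0.82 ± 0.31 SE (limma adjusted p = 0.52), and without the DMSO pool of clutch 1 it was −0.54.

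bmp2b encodes 1 of the 2 zebrafish Bmp2 ligands. It had 28.2, 27.9 and 23.4 units with RA, against 15.8, 18.6 and 20.7 with DMSO. It was the only 1 of the 3 BMP and GDF ligands above background whose RA pools all exceeded its DMSO pools, beside 7.68% of the 6678 genes. The clutch differences were 0.84, 0.59 and 0.18. The means were 26.5 ± 2.68 and 18.4 ± 2.44 (SD, n = 3 each), 1.45-fold higher after RA (log2 fold change 0.53 ± 0.18 SE, 95% interval 0.09 to 0.98, limma adjusted p = 0.47).

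bmp4, a ligand of the dorsal retina in vertebrates, was at background in every pool. It had 5.57, 3.28 and 3.08 units with RA, against 9.72, 7.84 and 10.1 with DMSO. The RA values were the lower ones without overlap, but all 6 lay under 13.2, so no fold is given, and its limma adjusted p of 0.19 rests on values that control probe sets also reached. With array weights that p was 0.089.

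bmp2a, the second Bmp2 gene, bmp6, bmp7a, bmp8a, bmp15, gdf3, gdf6b, gdf7 and admp were also at background on all 6 arrays. So were the nodal ligands among the members (ndr1 and ndr2), both lefty genes (lft1 and lft2), whose products oppose nodal, and the only measured TGF-beta ligand, tgfb1a. At this signal these genes could not be compared between the groups. For ndr1 the RA pools had 0.568, 0.411 and 3.16 units against 3.25, 3.27 and 3.403 in the DMSO pools, and for gdf6b the RA pools had 2.098, 1.84 and 3.39 units against 1.63, 0.576 and 1.47 in the DMSO pools. Both sets of values lie far under the background and do not overlap, ndr1 being lower and gdf6b higher with RA.

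The 8 receptors held no call, where 0.842% of all probe sets passed. Only 1 of them, bmpr1aa, had groups that stood apart, beside 17.2% of all genes. bmpr1aa encodes a type I BMP receptor. Its signals were 134, 119 and 111 with RA, against 179, 156 and 160 with DMSO. Each RA pool lay below each DMSO pool, and the clutch differences were close to each other, at −0.42, −0.40 and −0.53. The means of 121 ± 11.6 and 165 ± 12.1 (SD, n = 3 each) gave 1.37-fold lower signal after RA (log2 fold change −0.45 ± 0.16 SE, 95% interval −0.85 to −0.05, limma adjusted p = 0.51). Its other 2 probe sets gave −0.46 and −0.28.

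tgfbr2b encodes the type II receptor for TGF-beta. It had 33.4, 27.9 and 19.8 units with RA, against 45.9, 46.5 and 31.2 with DMSO. Within each clutch the RA pool was the lower, by 0.46, 0.74 and 0.66 on the log2 scale, but the groups overlapped (log2 fold change −0.62 ± 0.27 SE, limma adjusted p = 0.60). A second, dimmer tgfbr2b probe set gave −0.04.

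acvr2ba encodes a type II receptor for activins and BMPs. Its brightest probe set, of a kind whose oligonucleotides can match more than 1 transcript, had 193, 169 and 202 units with RA, against 114, 154 and 174 with DMSO. The RA pool was the higher in each clutch, with overlap between the groups (log2 fold change 0.37 ± 0.21 SE, limma adjusted p = 0.74, log2 fold change 0.20 without the DMSO pool of clutch 1). The next brightest acvr2ba probe set had 120, 109 and 119 units with RA, against 92.7, 130 and 135 with DMSO, and gave −0.02.

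Of the other receptors, acvr1l, a type I receptor that carries BMP signals in the early embryo, had means of 227 ± 14.5 with RA and 233 ± 34.9 with DMSO (SD, n = 3 each). Its log2 fold change was −0.03, with a 95% interval of −0.47 to 0.41. For acvrl1, the type I receptor of endothelium, it was −0.02 (−0.54 to 0.50), and for bmpr1ba, a second type I BMP receptor, −0.12 (−0.69 to 0.45). These intervals leave room for changes of either sign.

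bmpr1ab, a close relative of bmpr1aa, had 21.2, 27.6 and 21.0 units with RA and 37.9, 27.9 and 21.2 with DMSO. The DMSO pool of clutch 1 stood alone at the high end. acvr1ba, a type I activin and nodal receptor, had 9.39, 17.0 and 23.2 units with RA and 8.82, 14.5 and 18.5 with DMSO, so that the clutches ordered both groups the same way and each RA pool was slightly above its own DMSO pool. The pseudoreceptor gene bambia, whose product lacks the kinase and dampens the pathway, had 108, 110 and 120 units with RA, against 63.2, 84.1 and 125 with DMSO (log2 fold change 0.37, 95% interval −0.29 to 1.02, limma adjusted p = 0.82). Without the DMSO pool of clutch 1 it was 0.14.

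None of the 7 Smad genes separated the groups, where 17.2% of all genes did. smad2, which carries activin, nodal and TGF-beta signals, had 302, 291 and 305 units with RA, against 291, 260 and 384 with DMSO. Its log2 fold change was −0.04, with a 95% interval of −0.51 to 0.44. smad5, which carries BMP signals, had −0.05 (−0.84 to 0.74), and the inhibitory smad7 had −0.03 (−0.65 to 0.60).

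smad6a, the inhibitory Smad of the BMP branch, had 70.1, 58.6 and 56.6 units with RA, against 159, 76.1 and 62.3 with DMSO. It was lower with RA in each clutch, and most of the difference came from the DMSO pool of clutch 1: the log2 fold change was −0.56 over all pools (limma adjusted p = 0.78) and −0.16 without that pool. smad3b had 30.6, 31.3 and 36.7 units with RA, against 18.7, 28.8 and 33.3 with DMSO. It was higher with RA in each clutch, and the log2 fold change was 0.32 over all pools and 0.08 without the DMSO pool of clutch 1.

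The BMP carrier smad1 was above background in clutch 4 only, at 13.1, 7.71 and 26.8 units with RA and 9.37, 6.82 and 22.8 with DMSO. The clutches differed far more than the treatments. smad3a lay around the background in both groups, with 11.5, 13.7 and 13.4 units with RA and 6.95, 13.3 and 15.3 with DMSO.

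Of the 8 secreted inhibitors and modulators, only nog1 separated the groups, where 17.2% of all genes did. nog1 encodes a noggin, a BMP antagonist. It had 10.03, 13.3 and 15.003 units with RA, against 20.6, 18.6 and 17.1 with DMSO. All DMSO pools were above background and above all RA pools, while the RA pool of clutch 1 was at background. The means were 12.8 ± 2.53 and 18.8 ± 1.75 (SD, n = 3 each), with a log2 fold change of −0.57 ± 0.21 SE (95% interval −1.07 to −0.06, limma adjusted p = 0.51).

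A second noggin gene, nog2, had 18.4, 22.5 and 16.2 units with RA, against 16.7, 17.1 and 12.8 with DMSO, the last at background. Here the RA pool was the higher in each clutch, with overlap between groups (log2 fold change 0.29, 95% interval −0.22 to 0.80). nog3 was at background on all arrays, and chrd, the gene of chordin, exceeded it in 1 RA pool and 1 DMSO pool.

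bmper, which encodes a BMP-binding protein of the extracellular space, had 37.9, 39.1 and 52.1 units with RA, against 69.9, 59.8 and 51.9 with DMSO. It was lower with RA in clutches 1 and 3, and in clutch 4 the pools were nearly equal (log2 fold change −0.50 ± 0.21 SE, limma adjusted p = 0.58).

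The follistatin gene fsta had 87.3, 80.8 and 46.4 units with RA, against 47.6, 100 and 86.9 with DMSO. Its clutch differences were 0.88, −0.31 and −0.90. The follistatin-like gene fstl1b had 61.2, 56.8 and 42.3 units with RA, against 28.0, 86.7 and 82.1 with DMSO. In both genes the DMSO pool of clutch 1 was the low one, and without it the log2 fold changes were −0.44 for fsta and −0.68 for fstl1b, against −0.11 and −0.15 over all pools. The sign depended on the pool left out, since other pools left out in turn gave up to 0.17 for fsta and 0.14 for fstl1b. fstl5, another follistatin-like gene, had a log2 fold change of 0.16 (95% interval −0.41 to 0.73).

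**Figure D3:**
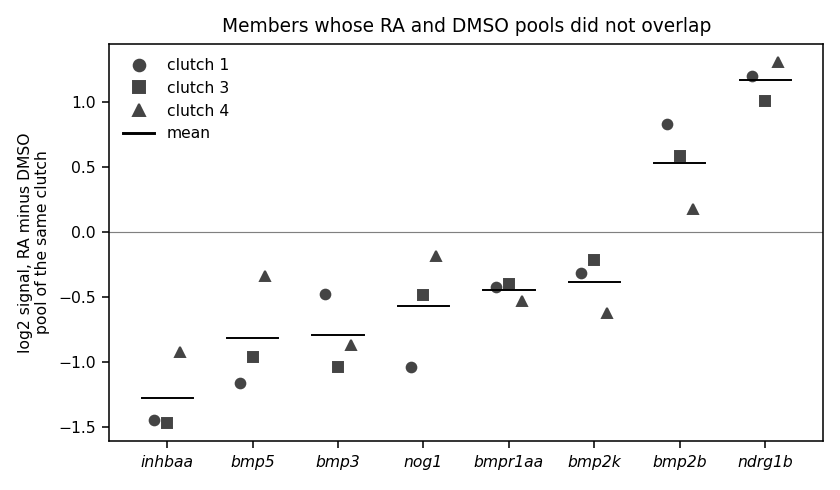
Difference in log2 signal between the RA pool and the DMSO pool of the same clutch, for the 8 members above background whose RA and DMSO pools did not overlap. Marker shape gives the clutch and the bar the mean of the 3 clutches. All 3 clutches lie on 1 side of 0 for each gene, since genes without overlap must do so, and the clutches are nearest each other for bmpr1aa (−0.42, −0.40 and −0.53).

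The 7 genes matched by their letters only included the largest positive log2 fold change of all 51 members. ndrg1b encodes an N-myc downstream regulated protein, a family named for its control by N-myc and not known as a part of BMP or TGF-beta signaling. Its signals were 589, 389 and 537 with RA, against 256, 193 and 217 with DMSO. Every RA pool exceeded every DMSO pool, with clutch differences of 1.20, 1.01 and 1.31. The means of 505 ± 104 and 222 ± 31.7 (SD, n = 3 each) gave 2.26-fold higher signal after RA (log2 fold change 1.18 ± 0.22 SE, limma adjusted p = 0.14, which missed 10% FDR). As with inhbaa, it passed with the intensity trend (0.014), array weights (0.042), dim probe sets left out (0.031) and 16 units added (0.049). It missed with the clutch as a block (0.20) and with each pool left out in turn (limma adjusted p between 0.17 and 0.39). Like inhbaa, it also missed with SAM, quantile normalization, median centring and signals floored at the background.

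The other ndrg genes showed no such difference in their brightest probe sets. The log2 fold change was 0.07 for ndrg1a (95% interval −0.36 to 0.50), 0.04 for ndrg3a (−0.59 to 0.67), −0.05 for ndrg3b (−0.40 to 0.30) and 0.07 for ndrg4 (−0.33 to 0.47). A second, dimmer ndrg4 probe set, above background in every pool, gave 0.46 with a wide interval (−0.65 to 1.57) and overlap between the groups. bmp2k, a kinase named for its induction by BMP2 in mammalian cells, had 17.9, 20.3 and 17.1 units with RA, against 22.2, 23.6 and 26.4 with DMSO, lower without overlap (log2 fold change −0.38 ± 0.17 SE, limma adjusted p = 0.59). tgfbi, a matrix protein induced by TGF-beta, had −0.22 (−0.75 to 0.31).

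Related genes were then compared within the same arrays, by the log2 ratio of their signals. The level of such a ratio also depends on how well each probe set hybridises, so only its difference between RA and DMSO is read. For 5 pairs an exact two-sided permutation test was run, which with 3 pools against 3 cannot go below 0.1. A ratio without overlap gives 0.1 whatever the size of its difference, so no pair could pass and the p-values decide nothing. The genes inhbaa, ndrg1b, nog1 and bmpr1aa had already separated the groups on their own, so the ratios are given as descriptions. The ratio of inhbaa over inhbb was −0.999 ± 0.316 with RA and 0.452 ± 0.426 with DMSO (SD, n = 3 each), a difference of −1.45 (exact p = 0.1, 0.17 adjusted over the 5 pairs). For ndrg1b over ndrg1a the difference was 1.11, with the same p-values, and for both pairs the groups did not overlap. For nog1 over nog2 it was −0.86, also without overlap, but 1 nog1 RA pool and 1 nog2 DMSO pool were at background.

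The ratio of bmpr1aa over bmpr1ab differed by −0.16 (exact p = 0.6, 0.75 adjusted) and that of ndrg3b over ndrg3a by −0.09 (exact p = 0.9), both with overlap. These ratios are built from the signals given above and are not independent of them.

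**Figure D4:**
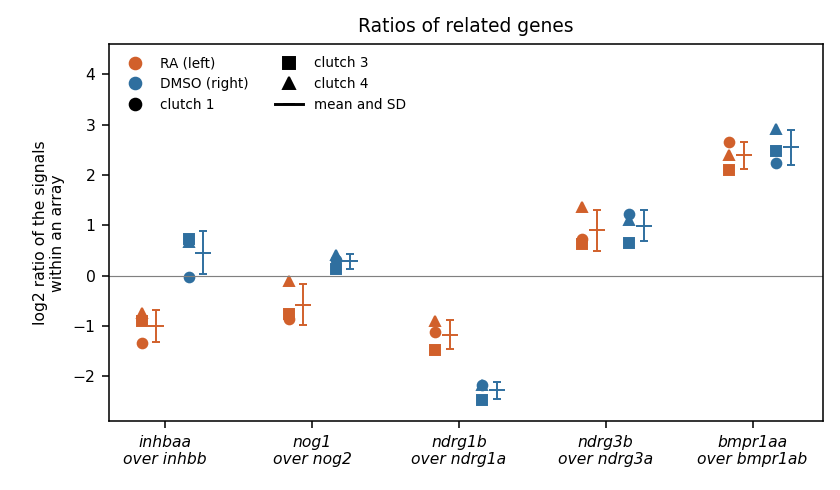
Log2 ratio of the signals of 5 pairs of related genes within an array, with the RA pools on the left and the DMSO pools on the right of each pair. Points are pools, marker shape gives the clutch, and bars are the mean and SD of 3 pools. For inhbaa over inhbb the RA mean is −0.999 and the DMSO mean 0.452, and the groups do not overlap, while for ndrg3b over ndrg3a they do.

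Other genes of the pathway, which the symbols above do not take, were read from a list of 73 genes, of which 51 were measured. None of them passed 10% FDR with limma (smallest adjusted p = 0.22), 14 were at background on all arrays, and the RA and DMSO pools did not overlap for 9, 5 of them higher and 4 lower after RA, beside 17.2% of all genes. Their median log2 fold change was −0.002, beside −0.02 over all genes. Of the secreted and membrane modulators 10 of 22 were measured, 1 higher and 2 lower without overlap. None of the 15 intracellular modulators separated the groups.

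Of 26 measured target genes, 4 were higher (junbb, msx3, tbx3a and msx2b, the last at background) and 2 lower (id4 and ccn2b, the last at background) without overlap, beside 7.2% and 10% of all genes. The median log2 fold change of the 26 was −0.09, whereas their summed signal, which the brightest of them carry, was 4157 to 4440 with RA and 3300 to 3948 with DMSO. For id1, id2a and id3 the RA pool was higher in clutch 1, by 0.91, 0.53 and 0.88 on the log2 scale. In clutch 4 it was slightly lower (−0.07, −0.10 and −0.07), whereas junbb and msx3 were higher with RA in each clutch. The part of the DMSO pool of clutch 1 in the sums was not tested. junbb, which encodes an AP-1 transcription factor induced early by TGF-beta, had 201, 202 and 318 units with RA, against 115, 110 and 127 with DMSO. All RA pools were the higher, by 2.00-fold (log2 fold change 1.00 ± 0.23 SE, limma adjusted p = 0.22). The homeobox gene msx3 had 195, 187 and 140 units with RA, against 91.5, 124 and 109 with DMSO (log2 fold change 0.68 ± 0.21 SE, limma adjusted p = 0.42), and its second probe set gave 0.90 in the same direction.

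The immediate BMP targets id1 and id3, which encode inhibitors of DNA binding, overlapped between the groups. id1 had means of 580 ± 62.4 with RA and 481 ± 152 with DMSO, and id3 had 525 ± 112 with RA and 391 ± 44.0 with DMSO (SD, n = 3 each). Their limma adjusted p-values were 0.86 and 0.70. rgmd, of the repulsive guidance family whose members act as BMP co-receptors, had 206, 230 and 191 units with RA, against 168, 137 and 109 with DMSO (log2 fold change 0.62 ± 0.21 SE, adjusted p = 0.47), higher without overlap. tdgf1, the nodal co-receptor, had 14.4, 9.65 and 10.6 units with RA, of which 2 were at background, against 18.3, 19.998 and 18.6 with DMSO (adjusted p = 0.32).

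Markers of tissues that whole eyes can carry were read beside these values. Photoreceptor markers (9 of 10 measured, all above background) summed to 15034 to 16119 units with RA and 15028 to 17010 with DMSO, and retinal neuron markers (9 of 9, all above background) to 5480 to 5764 with RA and 5416 to 5678 with DMSO. Cartilage and bone markers (4 of 6) summed to 1078 to 1256 units with RA and 1214 to 1539 with DMSO, with sox9a and runx2b at background. The median log2 fold change of the 4 was −1.22, and 2 of them were lower without overlap. matn1, a matrix protein of cartilage, fell to background at 12.5, 12.6 and 7.92 units with RA, against 69.8, 32.6 and 47.6 with DMSO, at least 3.62-fold lower (limma adjusted p = 0.082, and 0.21 with the clutch as a block), whereas col2a1a had a log2 fold change of −0.22. Blood markers (3 of 5, 1 of them at background) summed to 1106 to 1415 units with RA and 1554 to 2309 with DMSO. Skin markers (3 of 5) summed to 2581 to 2669 with RA and 2724 to 2772 with DMSO. Both sums were lower without overlap, but in each list only 1 gene was. The median log2 fold change was −0.20 for blood (smallest limma adjusted p = 0.54) and −0.01 for skin (smallest 0.83).

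Muscle markers (7 of 8) summed to 2335 to 2851 units with RA and 2726 to 3509 with DMSO. Of these genes 1 was higher and 2 were lower without overlap, with a median log2 fold change of 0.13 (smallest limma adjusted p = 0.21). Lens markers (2 of 6) summed to 4161 to 4915 with RA and 3488 to 4647 with DMSO, with overlap. Of the 2 genes only cryaa, a lens crystallin that holds the smaller part of that sum, separated the groups. It rose to 683, 638 and 794 units with RA, against 296, 264 and 356 with DMSO (limma adjusted p = 0.082, and 0.18 with the clutch as a block).

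Liver and plasma markers (6 of 6, 3 of them at background) summed to 65.1 to 261 units with RA and 20.9 to 63.3 with DMSO, without overlap. Within that list fgg, a fibrinogen chain, rose to 32.8, 213 and 198 units with RA and was at background with DMSO, at least 8.44-fold higher (limma adjusted p = 0.074, and 0.28 with the clutch as a block), and the other 5 overlapped. The median log2 fold change of the 6 was −0.18. Periocular mesenchyme markers (3 of 6) summed to 1460 to 1693 units with RA and 1321 to 1576 with DMSO, with foxc1a and foxc1b higher without overlap, and endothelium markers (3 of 4) to 207 to 371 with RA and 207 to 267 with DMSO, with kdrl and tie1, the last at background, higher without overlap. None of these 4 genes passed the threshold.

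The blood and skin sums and matn1 were lower with RA, as were inhbaa, bmp3, bmp5, bmpr1aa and nog1, while the liver and plasma sum, cryaa, foxc1a, foxc1b and kdrl were higher, as were bmp2b and ndrg1b. Such sums are carried by the brightest genes of a list. The median log2 fold change was −0.20 for blood, −0.01 for skin and −0.18 for liver and plasma. It was −1.22 for cartilage and bone (4 genes, 2 of them at background) and 0.61 for lens (2 genes, of which only cryaa separated the groups). For periocular mesenchyme it was 0.34, for endothelium 0.62 (3 genes each) and for muscle 0.13 (7 genes). The part of other tissues in the values of the members was not tested. The DMSO pool of clutch 1 had the lowest mean correlation with its group (0.946). The DMSO arrays of clutches 3 and 4 had 0.966 and 0.956, and the RA arrays 0.973 to 0.980. The DMSO pool of clutch 1 also had the highest 3'/5' ratio of the acta1 control (64.5), a measure of how completely the RNA was copied. That ratio also differed between the groups: it was 5.30 to 11.7 on the RA arrays and 12.0 to 64.5 on the DMSO arrays, without overlap and lower with RA in each clutch, while the ratio of gapdh was 1.32 to 1.75 with RA and 1.48 to 2.58 with DMSO. The part of RNA quality in the values above was not tested. The DMSO pool of clutch 1 was the DMSO array farthest from the middle one in 15 of the 31 members above background (48.4%), against 52.6% of the 6678 genes. Among the RA arrays the pool of clutch 4 was the farthest in 17 of the 31 (54.8%), against 48.7% of the genes. Without the DMSO pool of clutch 1, inhbaa had a log2 fold change of −1.28, bmp3 −0.87, bmpr1aa −0.39, bmp2b 0.43 and ndrg1b 1.28.

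Several members had more than 1 probe set. For 11 such genes with 25 probe sets, the probe sets of 4 (acvr2ba, bmp8a, fsta and smad5) differed in direction, and of these only acvr2ba had 2 above background on every array of a group. For fsta and smad5 the second probe set was at background. Of 36 genes named as the core of the pathway, 25 were measured by a probe set of that single symbol, and the others, among them smad4a, smad9, bmpr2b, tgfbr1a, tgfb2 and tgfb3, were not analysed here.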

How the data were processed

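RNA of dissected eyes was amplified by the NuGEN method and hybridised to 6 Affymetrix arrays. The authors deposited linear signal intensities, scaled so that the mean over the 15617 probe sets of an array, with 2% trimmed at each end, is the same on all 6. The methods describe RMA and SAM, but the deposited values are not RMA values, and the step that made them is not given in the sources used here. Log2 of the intensities was fitted with limma 3.58.1 in R 4.3.3 over 15555 probe sets, 62 control probe sets having been left out, two-sided and without a block, p-values were adjusted by Benjamini-Hochberg, and 10% FDR was the threshold. Gene symbols came from the platform annotation, and 50 of the 51 members had the same symbol in the RefSeq table.

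The numbers in the sample titles were read as clutches and pair the arrays, since the methods state that each clutch was split between the treatments. Neither the titles nor the methods state which number belongs to which clutch. Deviations from the group means within clutches 1, 3 and 4 correlated at 0.18, 0.38 and 0.31 over 11541 probe sets. The members and lists were chosen with earlier results of these data known. Members are named where the study names them (bmp2b, bmp4 and inhbaa), where they passed, where they were among the 15 with the smallest unadjusted p above background, where they are core genes of a role, or where their probe sets differ in direction. A gene that the letters match is not reported here. Other members were named after their values were seen. SDs are over 3 pools of linear signals and SEs are those of limma. SAM was written anew with 20 relabelings, and the scripts were tested on simulated data. Alternatives covered the block, variance trend, array weights, normalization, background, added constant, threshold, probe set and each pool left out. Array intensities give no read depth, and the number of arrays limits the precision.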

Additional observations from a re-analysis of the deposited data

How the results depend on the processing

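With limma at 10% FDR, the count of members called was 0, and it was 0 with the clutch as a replicate block, SAM, quantile normalization, median centring, signals floored at the background and 5% FDR. It was 2 with an intensity trend, 4 with array weights (bmp3, bmp4, inhbaa and ndrg1b), 2 with dim probe sets left out, 2 with 16 added and 3 at 20% FDR, and 0 to 1 when each pool was left out in turn, the 1 being ndr1, at background, without RA pool 4. Of the other pathway genes 0 were called, with 1 under the trend (junbb), 3 with array weights (junbb, rgmd and tdgf1), 1 with dim probe sets left out (junbb) and 1 with the floor (tdgf1). Over all probe sets 131 passed, against 45 with the replicate block, 33 with SAM, 274 with the trend, 593 with array weights, 302 with dim probe sets left out, 232 with 16 added, 73 at 5% FDR, 291 at 20% FDR and 52 to 117 with each pool left out. The replicate block changed no call among the members.

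The median log2 fold change of the members was −0.03 and ran between −0.084 and 0.05 with each pool left out. Over 561 settings of 32 named genes, 515 kept direction and side of the threshold, 13 newly passed it and 33 reversed direction. Reversals outside the left-out pools were bmp8a (−0.11 with array weights, −0.038 with the mean of its probe sets), chrd (0.026 with the floor), fsta (0.21 with the mean of its probe sets), smad2 (0.10 with array weights), smad3a (−0.010 with array weights, −0.048 with the floor), smad5 (0.63 with the mean of its probe sets) and smad7 (0.21 with array weights). The means for fsta and smad5 take in a second probe set at background on all 6 arrays, and all probe sets of bmp8a were at background. With each pool left out, the range was −0.16 to 0.058 for acvr1l, −0.38 to 0.030 for bmp2a, −0.29 to 0.051 for bmpr1ba, −0.44 to 0.17 for fsta, −0.68 to 0.14 for fstl1b, −0.11 to 0.42 for inhbb, −0.17 to 0.80 for smad1, −0.16 to 0.12 for smad2, −0.15 to 0.42 for smad3a, −0.23 to 0.26 for smad5, −0.23 to 0.17 for smad7 and −0.44 to 0.042 for tgfb1a. The cause of these shifts was not tested, beyond fewer probe sets being tested where dim ones were left out. Members near the background of 13.2 units, such as nog1 and bmp2b, are limited by their low signal.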
